A study of Mus musculus with 58 samples.

Results

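The second day of culture was compared with the first in wild-type (WT) mouse CD4+ T cells under a weak stimulus: 4 libraries at 48 h against 4 at 24 h, 8 of the 58 libraries of a study on the microRNA cluster miR-17~92. The libraries were taken by genotype, stimulus and time, and those that share a replicate number were treated as a pair. For every culture, naive CD4+ T cells were isolated from spleen and lymph node cells that had been pooled from 10 male and female mice. Both groups grew on plates carrying 0.5 µg/ml of anti-CD3 and 0.2 µg/ml of anti-CD28, with 50 U/ml of IL-2 added. The labels give no age or strain and no transgene for WT mice. Groups set beside them were WT cells on a plate with 0.25 µg/ml of anti-CD3, called the very weak stimulus here, cells that lost the cluster through a Cre under Cd4 control (KO), cells in which that Cre switches on a Rosa26 miR-17~92 transgene (TG), and uncultured naive WT cells. KO and TG cells carry Cre and WT cells do not. Nothing in the labels says whether equal replicate numbers stand for the same mice or for separate cultures, so p-values measure only the spread between these libraries.

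A naive CD4+ T cell leaves rest when its antigen receptor and CD28 are engaged together. It first builds ribosomes, nucleotides and replication factors, then divides, and over the same days it takes up the expression of cytokines, cytotoxic granule proteins and trafficking receptors that mark an effector cell. Glycolysis, sterol synthesis and amino acid uptake rise to supply the new cells, and interferon-inducible genes, which encode antiviral proteins, respond to type I and type II interferons made by or near the cells.

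Each of the 8 libraries held 19.4 to 19.8 M counts, so depth hardly differed between the times. Intronic counts, tallied apart from these, made up 15.4% to 18.4% of both tallies together at 24 h and 14.5% to 16.7% at 48 h. The share was lower at 48 h in 4 of 4 pairs (exact sign-flip test, two-sided p = 0.125, the smallest that 4 pairs allow). Time took the first principal component, with 71.0% of the variance, and the 48 h library of replicate 3 lay nearest to the 24 h libraries (component score 20.7, against 39.0 to 52.8 for the other 48 h libraries). Replicate 3 also held less RNA of the Y-linked gene Ddx3y at both times, 6.85 and 7.95 CPM (counts scaled by library total) against 33.4 to 57.9 CPM in the other 6 libraries. Cd4 stood at 555 to 604 CPM at 24 h and 554 to 644 CPM at 48 h. Markers of other cells were low: the summed level of 13 B cell genes was 30.2 to 74.9 CPM at 24 h and 27.2 to 75.2 CPM at 48 h, that of 22 myeloid genes 10.8 to 14.7 and 12.5 to 24.1 CPM, and that of 12 NK cell genes 10.9 to 21.7 and 23.4 to 48.3 CPM. Of 3 myeloid genes tested 1 rose and 0 fell. The defining myeloid gene Csf1r, which the naming rule did not pick, had 8 counts at 24 h and 0 at 48 h. In RNA from whole cultures, fewer cells of a kind and less RNA per cell cannot be told apart.

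From 24 h to 48 h, 5515 of 11861 tested genes changed (46.5% called at an adjusted p under 0.05, edgeR quasi-likelihood test), 2838 up (23.9%) and 2677 down (22.6%). The directions were near even in number but not in size: 1040 genes rose by at least 2-fold and 205 fell by as much. Without replicate 4 the count was 3644 and without replicate 1 it was 4113. The values of the groups did not overlap in 5274 genes (44.5%). Any list below is read against these shares of all genes.

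**Figure D1:**
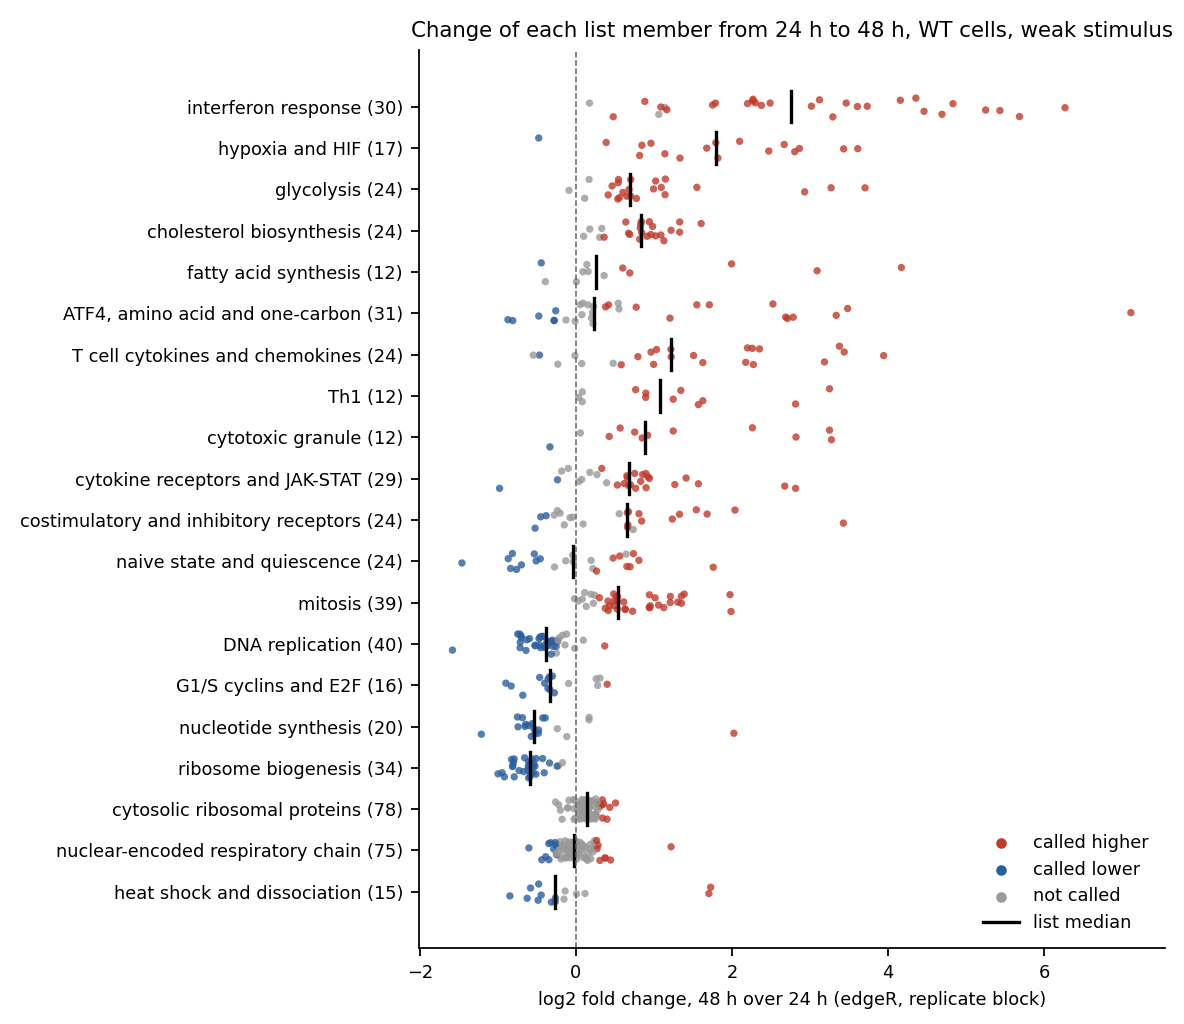
Log2 fold change from 24 h to 48 h of each tested member of 20 gene lists in WT cells under the weak stimulus; points are genes, coloured by call, and black bars are list medians. The medians of the interferon, hypoxia, cytokine and lipid lists lie to the right of 0, and those of ribosome biogenesis (-0.59), nucleotide synthesis and DNA replication to the left.

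The largest rises came from genes that were all but silent at 24 h. Dgkk, an X-linked diacylglycerol kinase gene (chromosome X, 6779306 to 6948363, GRCm38.p6), had 0 counts in the 4 libraries at 24 h and in the 3 naive libraries, and 423 counts at 48 h. Its 48 h levels were 5.32, 3.37, 7.20 and 5.55 CPM in replicates 1 to 4, at least 140.5-fold higher when the 24 h group is set at a floor of 3 counts. Vldlr, the very low density lipoprotein receptor (chromosome 19, 27216480 to 27254231), went from 0.106, 0.468, 0.0519 and 0.155 CPM to 22.4, 38.7, 13.1 and 35.7 CPM, a log2 change of 7.11 ± 0.25 (SE; adjusted p = 2.08e-06). Every 48 h library of Vldlr was above every 24 h library. Tgm2, a protein-crosslinking transglutaminase gene (chromosome 2, 158116405 to 158146392), stood at 1.37, 5.82, 1.56 and 1.49 CPM and reached 120.1, 573, 53.4 and 188 CPM (log2 6.38 ± 0.24). Replicate 2 was the highest of its group at both times. Slc17a6, a vesicular glutamate transporter gene, rose from at most 0.979 CPM to 19.1 to 26.1 CPM (log2 5.12 ± 0.30), with little spread at 48 h. The remaining 8 of the 12 largest rises were Rsad2, Oasl1, Mx1 and Isg15, which interferon induces, and Cavin3, Aldh1l2, Smtnl2 and Cacna1s, with log2 changes of 4.87 to 6.27.

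The falls were smaller. Rpph1, the RNA component of ribonuclease P, fell most, from 121, 95.0, 239.8 and 118 CPM to 22.9, 11.6, 25.4 and 25.3 CPM (log2 -2.72 ± 0.17, adjusted p = 1.64e-05). The replication-dependent histone gene H3c1 went from 7.38 to 8.57 CPM to 1.75 to 2.25 CPM (adjusted p = 9.57e-05). Neither transcript normally carries a poly(A) tail, and the libraries were made from poly(A) RNA; how much tail-less RNA was carried along was not tested. Alpl, an alkaline phosphatase gene, was 21.5 to 34.8 CPM at 24 h and 5.77 to 7.94 CPM at 48 h (log2 -2.04 ± 0.15). Vipr1, the receptor for vasoactive intestinal peptide, fell from 22.8 to 32.2 CPM to 5.68 to 9.35 CPM (log2 -1.91 ± 0.16), after 283 to 337 CPM in naive cells. Ak7, Zcwpw1, Rflnb, Rgl1, Rnf144a, Il1a and Sytl2 were also among the 12 largest falls (log2 -1.69 to -2.26), and of these Il1a alone had groups that overlapped.

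Interferon-inducible genes had the highest median change of the 49 lists. Of 30 members tested 27 rose and 0 fell, with a median log2 change of 2.75 against -0.0015 over all genes tested. The ubiquitin-like protein gene Isg15 stood at 3.48, 3.22, 3.63 and 3.30 CPM at 24 h and at 315, 198, 38.1 and 100.5 CPM at 48 h (log2 5.25 ± 0.42, adjusted p = 5.55e-05). The 24 h libraries were alike, and the 48 h libraries spread widely with replicate 1 highest and replicate 3 lowest. The oligoadenylate synthetase gene Oas3, whose product makes the messenger that switches on RNase L, went from 4.27, 7.22, 3.63 and 4.74 CPM to 263, 209, 32.7 and 109.7 CPM (log2 4.69 ± 0.35). Its order of libraries at 48 h was the same as for Isg15. Mx1, an antiviral dynamin-like GTPase gene, ran from at most 2.08 CPM to 18.7 to 232 CPM (log2 5.43 ± 0.52), and Ifih1, which encodes the double-stranded RNA sensor MDA5, from 33.9 to 40.1 CPM to 135 to 261 CPM (log2 2.20 ± 0.15). Naive cells held 19.5 to 35.2 CPM of Isg15 and 49.8 to 59.7 CPM of Oas3, so both were lower at 24 h than in naive cells. At 48 h Isg15 was above the naive range in 4 of 4 libraries and Oas3 in 3. The list as a whole went less far. Its summed level was 2804 to 3251 CPM in naive cells and 1096 to 1489 CPM at 24 h. At 48 h the sum was 5530, 3769, 2146 and 3186 CPM in replicates 1 to 4. Replicates 1 and 2 were thus above the naive range, replicate 4 within it and replicate 3 below it.

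Interferon-stimulated response elements, the promoter sites of these genes, were searched as GAAA, NN and GAAA in a row on both strands in the 250 bases before each RefSeq start (GRCm38.p6). They were in 10 of the 21 list members with a window (47.6%), in 3.34% of the tested genes with a window and in 2.98% of all 32851 windows. The list was chosen as interferon-inducible, so a high share describes that choice and not the rise. Of the 19 members with a window that rose, 8 had a match, and so did Ifit3 and Ifit3b, which were not called higher. The Isg15 stretch is shown because this gene carries several matches in a row close to its start; it lies on the minus strand at chr4:156200819-156200918 and capitals mark the overlapping matches.
Isg15: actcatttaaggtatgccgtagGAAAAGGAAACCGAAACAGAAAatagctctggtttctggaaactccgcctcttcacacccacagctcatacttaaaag

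**Figure D2:**
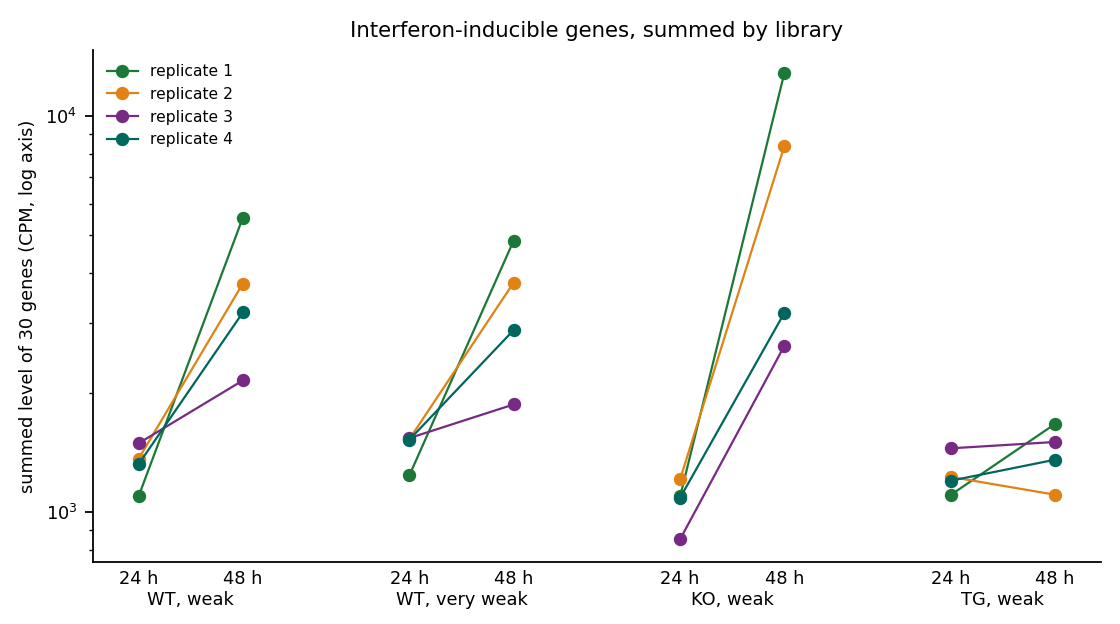
Summed CPM (log axis) of the 30 interferon-inducible genes in each library at 24 h and 48 h; lines join libraries of the same replicate number within a genotype and stimulus. The sum rose from 1096 to 5530 CPM in WT replicate 1 under the weak stimulus and from 1489 to 2146 CPM in replicate 3, and TG libraries stayed between 1103 and 1666 CPM.

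The rise in the summed list differed between pairs: 5.05-fold in replicate 1, 2.77-fold in replicate 2, 1.44-fold in replicate 3 and 2.41-fold in replicate 4. Under the very weak stimulus the 24 h sums of WT cells were 1236 to 1534 CPM and the 48 h sums 1866 to 4832 CPM. KO sums went from 852 to 1208 CPM to 2621 to 12791 CPM and TG sums from 1103 to 1446 CPM to 1104 to 1666 CPM. In fits of each genotype on its own, 30 of 30 members rose in KO cells (median log2 4.86), and 16 of 27 rose and 2 fell in TG cells (median 0.91). The difference in time change between genotypes was not called for any list member (Isg15: KO minus WT log2 1.32, adjusted p = 0.590; TG minus WT log2 -2.70, adjusted p = 0.166). The guanylate-binding and immunity-related GTPases, which interferon-gamma induces most, moved less: 8 of 18 rose and 0 fell (median 0.40). Of these Iigp1 went from 143 to 279 CPM to 297 to 445 CPM (log2 0.81 ± 0.17), and the number of the list that rose was 5 without replicate 1 or 4 and 13 without replicate 3.

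Hypoxia-inducible genes rose almost as a body, with 16 of 17 up (median log2 1.79) and 1, the carbonic anhydrase gene Car12, down (log2 -0.48 ± 0.09; named after its value was seen). Bnip3, a mitophagy receptor gene, stood at 10.9, 23.7, 9.87 and 13.4 CPM at 24 h and at 79.4, 137, 71.2 and 128 CPM at 48 h (log2 2.86 ± 0.12, adjusted p = 3.90e-06). The groups stayed far apart, and replicates 2 and 4 were the higher ones at both times. P4ha2, a collagen prolyl hydroxylase gene, went from 2.64, 4.47, 1.25 and 1.96 CPM to 23.0, 52.1, 16.2 and 35.4 CPM (log2 3.61 ± 0.18), and Ndrg1, a stress-responsive gene, from 7.23 to 16.2 CPM to 62.7 to 199 CPM (log2 3.43 ± 0.21). For both the order at 48 h was replicate 2, then 4, then 1, then 3, which is not the order of the interferon genes. The core of the hypoxia response element in its longer form, ACGTGC on either strand, was in the window of 8 of 14 members (57.1%), in 8.29% of the tested genes and in 4.92% of all windows. Bnip3 is printed because both of its strands match at once, in the palindrome given in capitals; the stretch is on the minus strand at chr7:138909507-138909636.
Bnip3: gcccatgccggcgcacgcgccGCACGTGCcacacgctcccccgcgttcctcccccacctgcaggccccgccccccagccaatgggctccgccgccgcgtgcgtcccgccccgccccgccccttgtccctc

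Glycolysis rose with it: 21 of 24 members went up and 0 down (median 0.69). Slc16a3, the lactate exporter MCT4, rose from 40.1, 84.8, 26.1 and 50.4 CPM to 265, 508, 294 and 398 CPM (log2 2.93 ± 0.14). The muscle form of enolase and the brain form of aldolase were among the leaders: Eno3 went from 27.1 to 34.3 CPM to 82.6 to 96.8 CPM (log2 1.55 ± 0.08) and Aldoc from 1.53 to 2.75 CPM to 14.7 to 49.8 CPM (log2 3.71 ± 0.23). The abundant enzyme gene Tpi1 went from 723 to 1072 CPM to 1703 to 2308 CPM (log2 1.15 ± 0.08). Gapdh was listed at only 5.20 to 10.8 CPM in these libraries; the genome holds near-identical copies of it, so its count and its call, which was lost without replicate 1, 2 or 4, are uncertain. The mitochondrial lists did not follow. Of 20 citrate cycle genes 2 rose and 5 fell (median -0.12), with the cytosolic Idh1 the largest riser (log2 2.32 ± 0.20), and of 75 nuclear-encoded respiratory chain genes 8 rose and 10 fell (median -0.02). Without replicate 4 the respiratory chain counts were 3 and 2, and 2 citrate cycle genes fell.

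Cholesterol synthesis genes rose in 20 of 24 cases and fell in 0 (median 0.84), at small and even steps. Msmo1, a sterol C4-methyl oxidase gene, stood at 67.6, 61.4, 60.1 and 66.5 CPM at 24 h and at 169.6, 147, 154 and 177 CPM at 48 h (log2 1.33 ± 0.08, adjusted p = 1.22e-05). Hmgcs1, which makes the substrate of HMG-CoA reductase, went from 186 to 213 CPM to 372 to 459 CPM (log2 1.09 ± 0.10). Within each group the libraries lay close together for both genes. In the fatty acid list 5 of 12 rose and 1, the acetyl-CoA carboxylase gene Acaca (named after its value was seen; log2 -0.44 ± 0.10), fell. The risers were mainly desaturases. Scd1, the delta-9 desaturase that makes oleate, rose from 8.49, 10.4, 7.37 and 7.11 CPM to 171, 195, 93.9 and 158 CPM (log2 4.17 ± 0.14). The far more abundant Scd2 went from 336 to 451 CPM to 1336 to 1842 CPM (log2 1.99 ± 0.09), and the delta-6 desaturase gene Fads2 from 7.53 to 14.7 CPM to 74.0 to 105 CPM (log2 3.09 ± 0.16).

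A mixed list of ATF4, amino acid and one-carbon genes split. ATF4 is the transcription factor of the amino acid and integrated stress response. Of 31 genes in the amino acid and one-carbon list 13 rose and 6 fell (median 0.23). Asns, asparagine synthetase, went from 25.7, 26.7, 21.9 and 22.3 CPM to 243, 165, 70.3 and 130.1 CPM (log2 2.53 ± 0.21, adjusted p = 6.32e-05). Trib3, a pseudokinase gene that ATF4 and CHOP switch on, went from 3.22 to 4.21 CPM to 18.0 to 55.2 CPM (log2 3.34 ± 0.28), and Cth, which makes cysteine from cystathionine, from 3.53 to 10.5 CPM to 27.1 to 93.4 CPM (log2 2.79 ± 0.14). The lowest 48 h library was replicate 3 in each of these genes, and the highest replicate 1. Among the 6 that fell were the folate-cycle genes Shmt1, Shmt2, Mthfd1 and Mthfd1l, with Shmt1 going from 257 to 319 CPM to 132 to 191 CPM (log2 -0.81 ± 0.11; these were named after their values were seen). Without replicate 3 or 4 the number that fell was 3, the call of Shmt2 was lost without replicate 1, 3 or 4, and that of Mthfd1l whichever replicate was left out. The amino acid response element, searched as TGATGNAA on both strands, was in 6 of 28 windows of the list (21.4%), in 2.39% of the tested genes and in 3.45% of all windows. A match of letters is a description and not a bound site. Whether such matches bear on the changes with time was not tested for any list searched. Asns is shown because it was described above and its match sits close to the start; the stretch is on the minus strand at chr6:7693210-7693309, with the match in capitals.
Asns: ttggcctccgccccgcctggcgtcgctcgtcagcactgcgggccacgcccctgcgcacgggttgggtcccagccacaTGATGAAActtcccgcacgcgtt

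**Figure D3:**
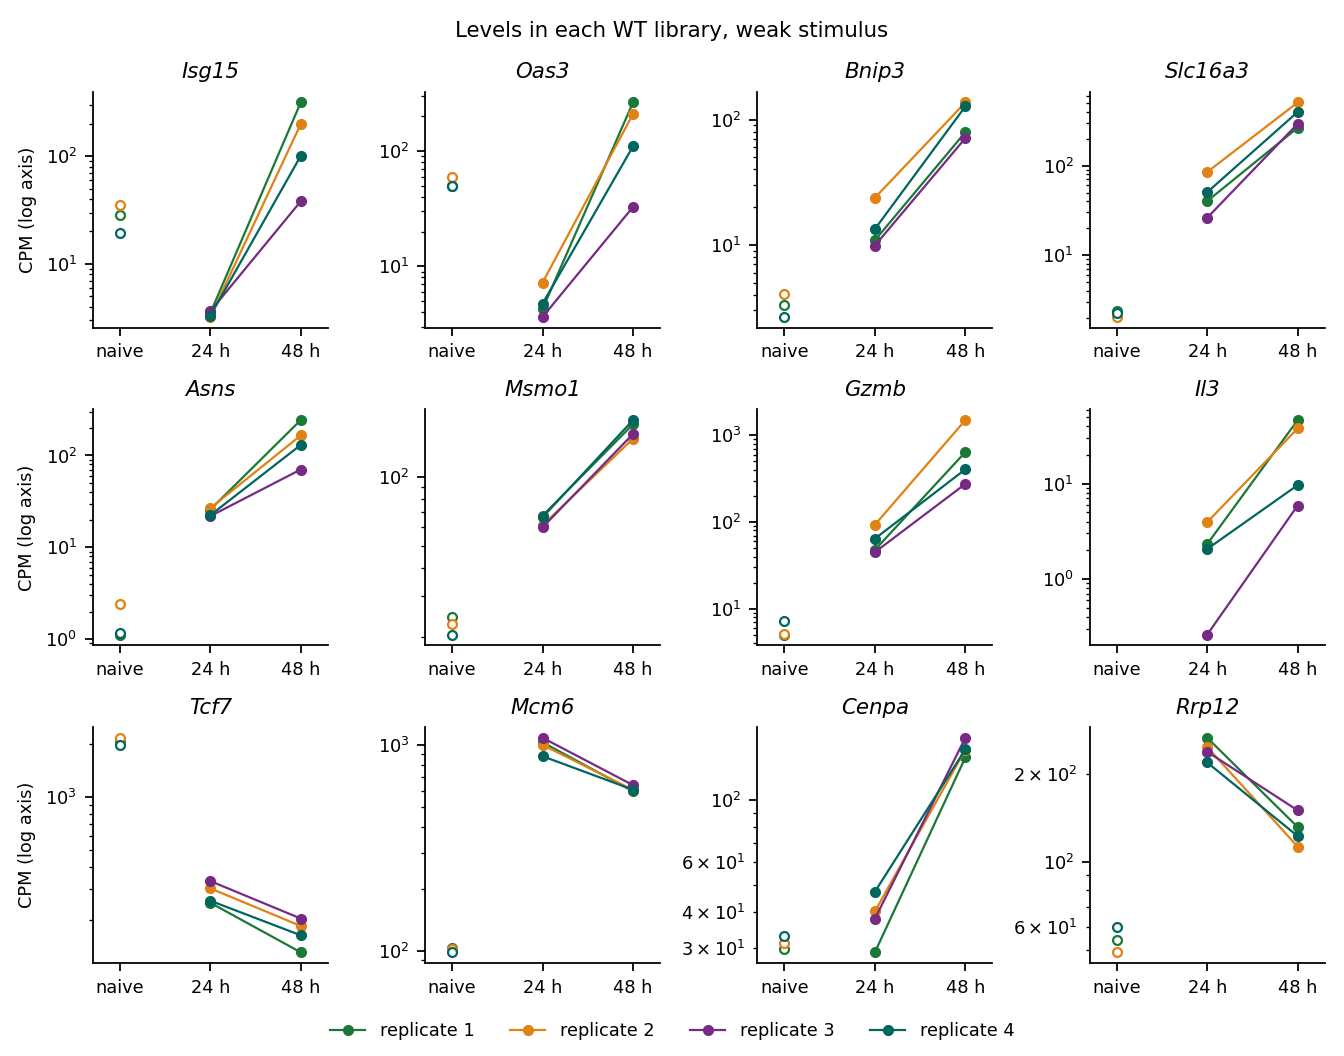
CPM (log axes) of 12 genes in each WT library; lines join the 24 h and 48 h libraries of a replicate number, and open circles are the 3 naive libraries, where values of 0 (Il3) cannot be drawn. Values of the 2 times do not overlap in any of the 12 genes, while the spread at 48 h is wide for Isg15 (38.1 to 315 CPM) and narrow for Cenpa and Mcm6.

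Cytokine genes rose as a group, 18 of 24 up and 1 down (median log2 1.22). Il2, the T cell growth factor and chosen here after its values were seen, stood at 30.2, 47.4, 11.1 and 42.2 CPM at 24 h and at 269, 95.6, 112 and 114 CPM at 48 h (log2 2.20 ± 0.37, adjusted p = 0.00163). Replicate 1 alone lay far above the rest at 48 h, and the groups did not overlap. Il3, a growth factor of blood progenitors, went from 2.32, 3.95, 0.260 and 2.06 CPM to 46.6, 38.2, 5.90 and 9.67 CPM (log2 3.44 ± 0.32). Csf2, which encodes GM-CSF, went from 0.0519 to 0.831 CPM to 1.90 to 15.3 CPM (log2 3.94 ± 0.27). Replicates 1 and 2 were higher than 3 and 4 for Il3 and Csf2 at 48 h. Lif went from 26.8 to 61.7 CPM to 127 to 370.1 CPM (log2 2.35 ± 0.13), and the chemokine gene Ccl5 from 1.35 to 2.43 CPM to 6.85 to 37.8 CPM (log2 3.38 ± 0.25). The 1 member that fell was the chemokine gene Xcl1 (log2 -0.47 ± 0.14; named after its value was seen), its groups overlapped, and it was not called without replicate 1, 2 or 4 or without the replicate block (adjusted p = 0.176).

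Helper lineage genes moved unevenly. In the Th1 list 9 of 12 rose and 0 fell (median 1.07), in the Th2 list 7 of 11 rose and 1 fell (0.66), in the Th17 list 3 of 5 rose and 2 fell, and in the regulatory T cell list 6 of 14 rose and 2 fell (0.41). The interferon-gamma gene Ifng went from 9.28, 17.6, 5.87 and 13.4 CPM to 34.9, 54.6, 23.7 and 27.3 CPM (log2 1.63 ± 0.16). Receipt of IL-12 is served by Il12rb2, at 18.4 to 42.1 CPM at 24 h and 128 to 349 CPM at 48 h (log2 2.82 ± 0.29), and by Stat4, at 77.1 to 124 CPM and 241 to 389 CPM (log2 1.57 ± 0.14). The IL-12 receptor gene Il12rb1 was not called (log2 0.036, named after its value was seen). Tbx21, the master regulator of Th1 cells and chosen after its values were seen, was at 82.1 to 111 CPM and 86.0 to 125 CPM and did not pass the test (log2 0.08 ± 0.08, adjusted p = 0.458). Il4, the signature Th2 cytokine, rose but stayed low, with at most 0.364 CPM at 24 h and at most 4.17 CPM at 48 h (log2 3.19 ± 0.38). In the Th17 list, Rora, a nuclear receptor gene, rose from 2.70 to 5.46 CPM to 11.4 to 18.2 CPM (log2 2.01 ± 0.17). Foxp3, the regulatory T cell factor, fell from 9.15 to 16.9 CPM to 4.15 to 6.82 CPM (log2 -1.19 ± 0.18).

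Cytotoxic granule genes rose in 10 of 12 cases (median 0.88; 1 fell). Gzmb, which encodes granzyme B, went from 47.7, 93.1, 45.0 and 64.3 CPM to 640.4, 1494, 275 and 405 CPM (log2 3.25 ± 0.24, adjusted p = 3.86e-05), with replicate 2 highest at both times. Nkg7, a granule membrane protein gene, rose evenly from 12.1 to 17.3 CPM to 84.9 to 109 CPM (log2 2.82 ± 0.11). Of the NK cell markers Klrk1, the receptor NKG2D that activated T cells can carry too, rose from 0.987 to 1.34 CPM to 5.05 to 13.6 CPM (log2 2.71 ± 0.25). The NK-defining Ncr1, which the naming rule did not pick, had 24 counts over 4 libraries at 24 h and 10 at 48 h. Of 5 NK cell markers tested 3 rose and 0 fell, and of 2 CD8 T cell markers 1 rose (0 without replicate 1 or 4), with a summed level of 9.45 to 17.2 CPM at 24 h and 13.1 to 23.2 CPM at 48 h. The part of either in the change of the granule genes was not tested. Costimulatory and inhibitory receptor genes rose in 12 of 24 cases and fell in 3 (median 0.66; 1 fell without replicate 4). Tnfrsf9, the receptor 4-1BB, went from 117 to 161 CPM to 318 to 682 CPM (log2 1.68 ± 0.13), and Tnfrsf18, the receptor GITR, from 119 to 142 CPM to 299 to 454 CPM (log2 1.54 ± 0.10). Pdcd1, which encodes the inhibitory receptor PD-1, fell from 136 to 179.6 CPM to 91.2 to 146 CPM (log2 -0.52 ± 0.14, adjusted p = 0.0153); its groups overlapped, and the call was lost without replicate 1, 2 or 4 (log2 -0.41 to -0.47).

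Genes of the naive state split into 8 that rose and 9 that fell among 24 (median -0.04), and without replicate 1, 2 or 4 the number that rose was 4. Tcf7, a transcription factor gene of naive and memory T cells, went from 249.7, 302, 332 and 256 CPM to 130.1, 184, 203 and 163 CPM (log2 -0.76 ± 0.08), after 1996 to 2182 CPM in naive cells. Its groups did not overlap, and replicate 3 was highest at both times. The transcription factor genes Bach2 and Foxp1 fell too, Bach2 from 353 to 417 CPM to 188 to 276 CPM (log2 -0.87 ± 0.10) and Foxp1 from 401 to 464 CPM to 184 to 319 CPM (log2 -0.84 ± 0.11). Early activation genes were higher at the later time in 17 of 25 cases and lower in 2 (median 0.43). Their summed level was 4866 to 5791 CPM at 24 h and 6328 to 7168 CPM at 48 h, against 5230 to 9437 CPM in naive cells. Junb, an AP-1 subunit gene, went from 133, 168, 87.0 and 134 CPM to 337, 466, 225 and 322 CPM (log2 1.35 ± 0.08) and Bhlhe40, a repressor gene that T cell receptor signals induce, from 84.8 to 253 CPM to 332 to 622 CPM (log2 1.58 ± 0.11). For both, replicate 2 was highest and replicate 3 lowest at each time. In the group of 20 published targets of miR-17~92 7 rose and 2 fell (median 0.20), against 23.9% and 22.6% of all genes; E2f1, one of them, fell (log2 -0.83 ± 0.12) and Cdkn1a, another, rose.

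The cell cycle lists moved in opposite directions. Mitosis genes rose in 31 of 39 cases and fell in 0 (median log2 0.54), and DNA replication genes fell in 31 of 40 and rose in 1, the thymidine kinase gene Tk1 (median -0.38; Tk1 was named after its value was seen). The centromere histone gene Cenpa went from 28.9, 40.2, 37.9 and 47.2 CPM to 141, 150.2, 165 and 150.5 CPM (log2 1.99 ± 0.11, adjusted p = 1.08e-05), and Ccnb2, cyclin B2, from 14.9 to 29.2 CPM to 85.8 to 103 CPM (log2 1.97 ± 0.15). The replicative helicase gene Mcm6 fell from 1032, 1002, 1086 and 883 CPM to 596, 605, 638 and 606 CPM (log2 -0.71 ± 0.08), and stayed well above the 98.0 to 103 CPM of naive cells. Ung, a uracil-DNA glycosylase gene, fell from 125 to 173 CPM to 37.4 to 65.2 CPM (log2 -1.58 ± 0.15). No 48 h value of these 4 genes reached into the 24 h range. Among G1/S cyclins and E2F genes 11 of 16 fell and 1 rose (median -0.34), a count that was 4 without replicate 4 and 7 without replicate 1. Of 8 CDK inhibitor and RB family genes 4 rose and 0 fell. Cdkn2d, which encodes the CDK4/6 inhibitor p19, went from 14.3 to 22.5 CPM to 38.4 to 70.1 CPM (2.82-fold, adjusted p = 1.64e-05), and Cdkn1a, p21, from 44.4, 42.1, 44.4 and 111 CPM to 149, 256, 119 and 151 CPM (log2 1.54 ± 0.28), with replicate 4 already high at 24 h.

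Ribosome biogenesis fell the most evenly of all lists: 32 of 34 members went down and 0 up (median -0.59). Rrp12, an assembly factor, went from 265, 247, 238 and 219 CPM to 129 ± 15.8 CPM (mean ± SD, n = 4; log2 -0.92 ± 0.09, adjusted p = 1.56e-04), and Polr1b, a subunit of RNA polymerase I, from 237 to 283 CPM to 119 to 155 CPM (adjusted p = 2.69e-04). Rrp12 stayed above its naive level of 49.2 to 60.2 CPM. Nucleotide synthesis genes fell in 15 of 20 cases and rose in 1, Adssl1 (median -0.53; the riser was named after its value was seen). Cad, whose product carries out the first steps of pyrimidine synthesis, went from 824 ± 79.6 CPM (mean ± SD, n = 4) to 264, 372, 446 and 365 CPM (log2 -1.21 ± 0.15). The ribosomal protein genes themselves did not fall: 11 of 78 rose and 0 fell (median 0.15). That count depended on single pairs, being 33 without replicate 3 and 2 without replicate 4, and near-identical pseudogene copies share reads with many of these genes. Heat shock and chaperone genes fell in 9 of 15 cases and rose in 2 (median -0.27); Hsph1, an Hsp110 chaperone gene, went from 371 to 489 CPM to 234 to 260.1 CPM (log2 -0.85 ± 0.10).

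**Figure D4:**
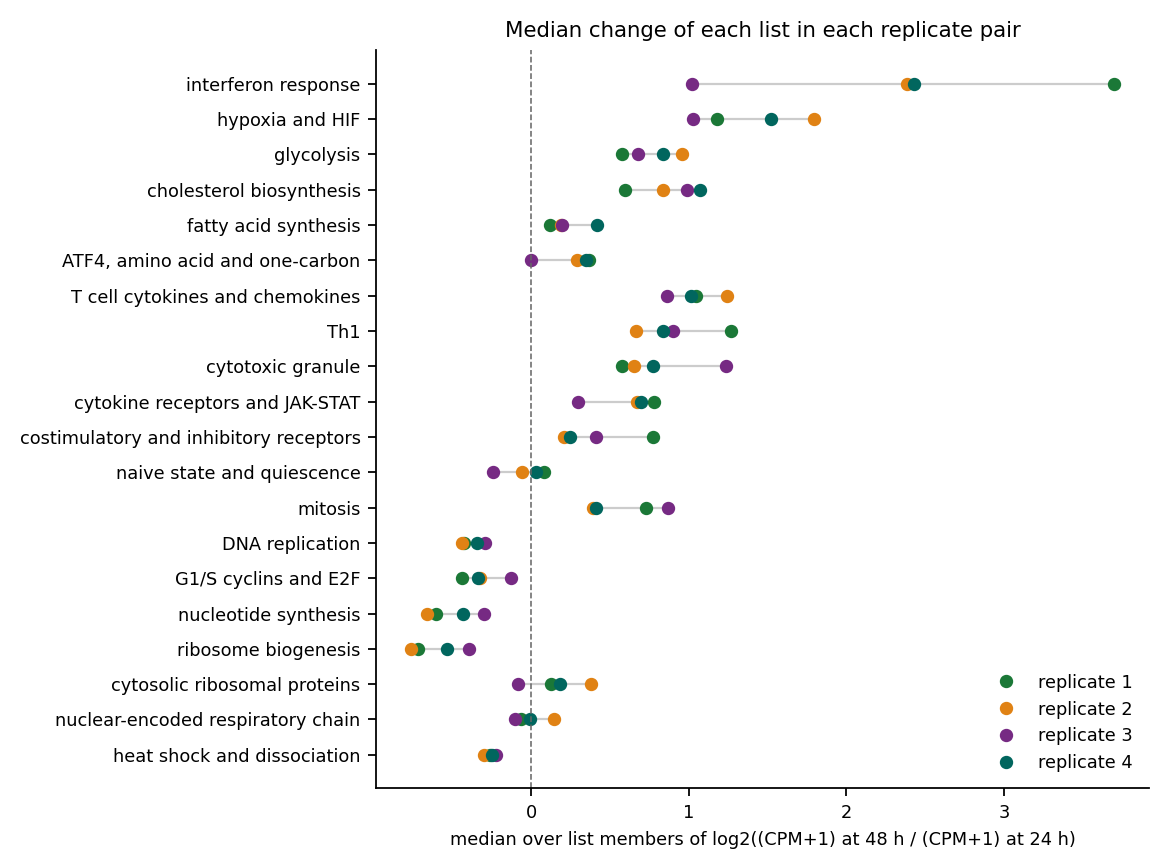
Median over members of each list of the log2 ratio of 48 h to 24 h levels (CPM plus 1) in each replicate pair; grey lines join the lowest and highest pair. Interferon genes spread most between pairs, from 1.02 in replicate 3 to 3.70 in replicate 1, and ribosome biogenesis lay between -0.40 and -0.76.

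The pairs did not order the lists alike. Replicate 3 had the smallest median change for interferon genes (1.02, against 2.38 to 3.70 in the other pairs), for hypoxia genes (1.02 against 1.18 to 1.80) and for ribosome biogenesis (-0.40 against -0.53 to -0.76), and the largest for mitosis genes (0.87 against 0.39 to 0.73). These are descriptions of 1 pair each. Replicate 3 is also the pair with the lowest Ddx3y, and whether that bears on these changes was not tested.

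Intronic counts, which come from unspliced RNA, gave a second reading of the same libraries beside the full gene counts used so far. The full counts were taken to hold no intronic reads. Of 10265 genes tested 2559 changed (24.9%), 1338 up (13.0%) and 1221 down (11.9%), and without replicate 1 the number was 1330, without replicate 4 it was 1529. A direct test of whether the log2 change differed between full and intronic counts called 1847 of 9790 genes (18.9%), 965 with the higher value in full counts (9.86%) and 882 with the lower (9.01%). Without replicate 1 that test called 729 genes, without replicate 4 it called 1153, and without the replicate block it called 582 (260 higher and 322 lower). In intronic counts alone, 21 of 24 interferon genes, 16 of 23 cholesterol genes, 25 of 39 mitosis genes and 15 of 23 glycolysis genes rose, and 22 of 40 DNA replication genes fell. For ribosome biogenesis 8 of 32 fell in introns, and in 10 of 32 the fall was larger in full counts.

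Some genes parted between the readings. Bnip3l, a mitophagy receptor gene related to Bnip3 (chromosome 14, 66985238 to 67008877), rose from 35.7, 52.2, 52.9 and 44.6 CPM to 135, 177, 153 and 191 CPM in full counts (log2 1.82 ± 0.11) while its introns changed by log2 -0.07 (adjusted p = 0.797); the difference was 1.89 ± 0.16 (adjusted p = 4.52e-06). H2az2, a histone H2A.Z gene, rose in full counts (log2 1.07 ± 0.11) and fell in introns (-0.78), and so did Crebrf (0.71 and -0.82). Ramp3, a partner of calcitonin-type receptors, rose by 3.61 ± 0.16 in full counts and by 0.76 in introns. In the other direction the RNA helicase gene Ddx3x had a log2 change of -0.32 ± 0.14 in full counts, not called, though called without replicate 3, while its introns rose by log2 1.25. Like Bnip3l, the memory marker gene Cd44 rose in full counts, from 81.5 to 126 CPM to 213 to 333 CPM (log2 1.32 ± 0.11). Its intronic change of 0.23 did not pass (adjusted p = 0.227). A pass in a single reading is not a test of the difference. By list, 8 of 13 heat shock and chaperone genes had a lower change in full than in intronic counts and 0 a higher one, and 12 of 24 interferon genes had a higher change in full counts and 1 a lower one.

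**Figure D5:**
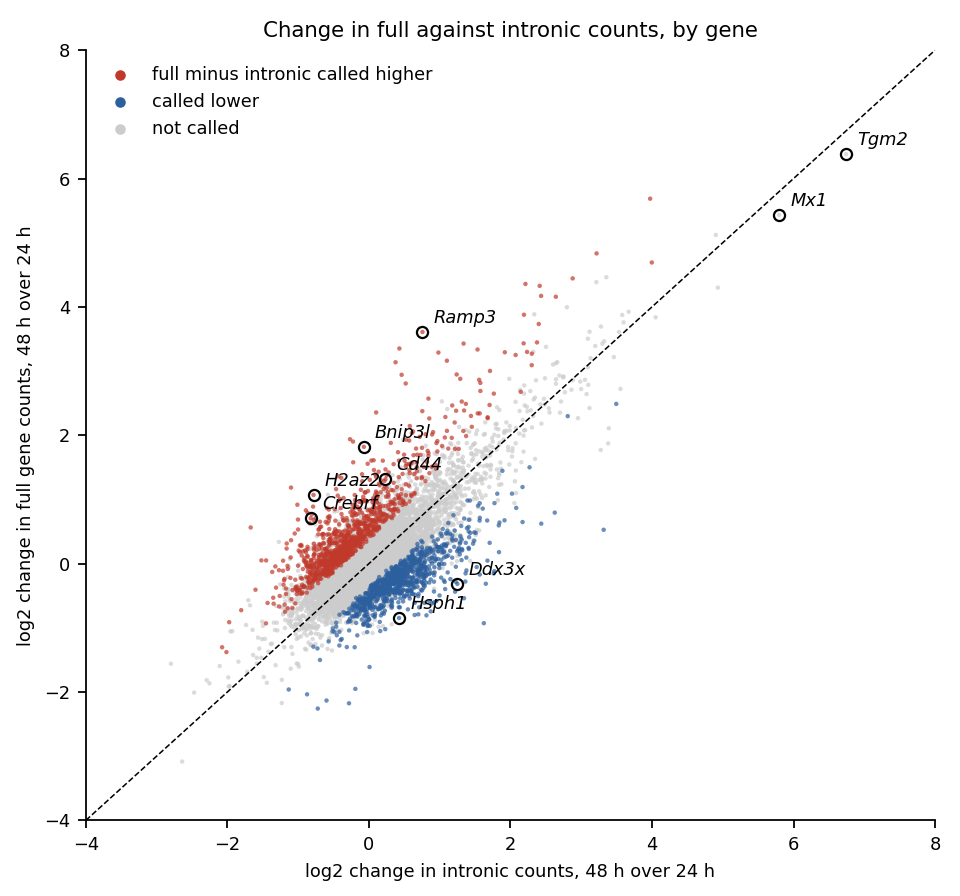
Log2 change from 24 h to 48 h in full counts (vertical) against intronic counts (horizontal) for each of the genes tested in both; red and blue points were called in the test of the difference, and the dashed line marks equal change. Bnip3l, H2az2, Crebrf, Ramp3 and Cd44 lie above the line, and Ddx3x and Hsph1 below it.

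No gene was called for a time change that differed between the anti-CD3 doses. Under the very weak stimulus 4263 of 11828 genes changed from 24 h to 48 h (36.0%). Of the 5441 genes called under the weak stimulus that were tested in both, 69.2% were also called under the very weak stimulus in the same direction, and these 3765 genes were 89.0% of the 4229 called there; 0 were called in opposite directions. A test of the difference between the 2 time changes called 0 of 12225 genes (edgeR; 313 at an unadjusted p under 0.05; 0 and 280 by DESeq2). Under the weak and the very weak stimulus Mcm6 changed by log2 -0.71 and -0.58 in separate fits (difference -0.11 ± 0.10 in the joint fit of both stimuli, which gives each difference here). The spread was wider for Gzmb, with 3.25 and 3.04 (difference 0.21 ± 0.37), and for Isg15, with 5.25 and 4.46 (difference 0.77 ± 0.71). With such errors the missing calls do not show that the doses act alike.

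The time changes of KO and TG cells were compared with that of WT cells; since KO and TG cells carry Cre and WT cells do not, an effect of Cre and one of the cluster cannot be told apart. In KO cells 4990 of 11850 genes changed with time (42.1%) and in TG cells 5304 of 11882 (44.6%). KO and WT time changes differed in 3 of 12523 genes (0.024%), 1 higher (0.00799%) and 2 lower (0.016%) in KO cells, and 1162 genes had an unadjusted p under 0.05. Eno3 went from 27.1 to 34.3 CPM to 82.6 to 96.8 CPM in WT cells and from 27.1 to 35.9 CPM to 36.8 to 45.6 CPM in KO cells (KO minus WT log2 -1.17 ± 0.13, adjusted p = 0.00202). The ETS repressor gene Etv6 was at 139 to 177 CPM and 158 to 185 CPM in WT cells and rose in KO cells from 90.8 to 132 CPM to 168 to 238 CPM (difference 0.73 ± 0.10), and Hip1, which encodes a clathrin-binding protein, rose from 1.32 to 2.47 CPM to 5.38 to 9.55 CPM in WT cells and was at 2.23 to 4.28 CPM and 2.42 to 3.93 CPM in KO cells (-1.75 ± 0.26). TG and WT time changes differed in 5 of 12523 genes (0.0399%), 2 higher (0.016%) and 3 lower (0.024%) in TG cells, and 887 genes had an unadjusted p under 0.05. Ms4a4b, a tetraspan membrane protein gene of T cells, rose from 90.7 to 127 CPM to 154 to 223 CPM in WT cells and fell from 42.9 to 90.4 CPM to 5.36 to 38.6 CPM in TG cells (TG minus WT log2 -2.48 ± 0.34, adjusted p = 0.0186). Mpeg1, which encodes the pore-forming protein perforin-2, rose from 8.02 to 11.5 CPM to 25.4 to 109 CPM in WT cells, while TG libraries were at 9.44 to 12.9 CPM at 24 h and at 7.78, 3.10, 11.01 and 5.41 CPM at 48 h (-2.97 ± 0.43). Slc14a1, a urea transporter gene, differed by -2.09 ± 0.31, Focad by 0.77 ± 0.11 and Calcrl, the receptor that Ramp3 partners, by 1.16 ± 0.18. DESeq2 called 70 genes for KO and 93 for TG, so the number depends on the tool; without replicate 2 or 4 the KO count was 0, and without replicate 4 the TG count was 0.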

How the data were processed

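RNA from 8 WT CD4+ T cell cultures was measured by stranded poly(A) RNA sequencing. Counts per gene were deposited by the authors as whole numbers, once over full genes and once over introns; per the submitters' processing notes the build was mm10 and the tools were STAR 2.5.2a, FastQC 0.11.5, edgeR 3.24.3 and R 3.5; which counter, annotation and strand option were used is not given in the sources used here. Intron counts exceeded full counts in 14.1% of values, so the tables are not nested. Of 24028 gene rows 53 had no symbol. The 11861 genes passing edgeR's filterByExpr were fitted with edgeR 4.0.16 (R 4.3.3, TMM factors 0.968 to 1.02, quasi-likelihood test, replicate number as block, 3 residual degrees of freedom); adjusted p-values are Benjamini-Hochberg and called at 0.05, and SE is the log2 change over the root of F. Levels are CPM with TMM factors over all 58 libraries. Time changes were compared between stimuli, genotypes and full or intronic counts with interaction terms. All scripts' tests were run on counts simulated without differences between pairs. Only genes with at least 5 CPM were changed, and few of them. In the main comparison these were 67 by 1.5-fold, 67 by 2-fold and 66 by 4-fold among 11861, while 5515 were called in the data. Of 1.5-fold changes 68.7% were recovered in the main comparison, 34.3% in intronic counts and 23.9% in full against intronic counts. The tests between stimuli and genotypes recovered 28.4% to 35.8% of them. False calls were 5.85% of calls in the main comparison and 4.67% to 8.97% in the others. Recovery and false calls depend on how many genes change, so these simulated shares need not hold for the data. Named genes are the 12 largest rises and falls with at least 5 CPM in a group and all 4 pairs alike, up to 4 per list by smallest p, and up to 6 called genes per interaction. The comparison, the members and the 49 lists were chosen with earlier results of these data known. Promoter sequences are from RefSeq (GRCm38.p6). Alternatives were another scaling, no filter, no block, DESeq2 1.42.0, all 58 libraries, and each replicate left out. A few results are not reported here. Antisense, overlapping and near-identical genes are uncertain.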

Additional observations from a re-analysis of the deposited data

Results flagged for a closer look

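Single libraries stood apart from the other 3 of their group, by a gap that took most of the group's range, in 7 of the 230 groups of 4 that were checked (3.04%), and chance alone sets apart about 1 in 20 groups. At 24 h these were Tgm2 in replicate 2 (5.82 CPM, high), Cdkn1a in replicate 4 (111 CPM, high), Ak7 in replicate 4 (4.85 CPM, low) and Rgl1 in replicate 2 (6.70 CPM, low). At 48 h replicate 1 was high for Rsad2 (56.1 CPM), Ifih1 (261 CPM) and Il2 (269 CPM).

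The time change differed between KO and WT cells by a test of the difference for Eno3 (log2 -1.17), Etv6 (0.73) and Hip1 (-1.75). Between TG and WT cells it differed for Ms4a4b (log2 -2.48), Focad (0.77), Mpeg1 (-2.97), Slc14a1 (-2.09) and Calcrl (1.16).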

How the results depend on the processing

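Of 115 named genes, no call or direction changed under another scaling, without the filter or with DESeq2. Calls were lost for Xcl1 without the block, for Shmt2 and Xcl1 with all 58 libraries, for Mthfd1l, Shmt2 and Tk1 with replicates 1 and 2 only, and for Acaca, Adssl1, Gapdh, Il1a, Mthfd1l, Pdcd1 and Xcl1 with replicates 3 and 4 only. With replicates 1 and 2 only Cd4 changed sign (log2 -0.0109); it was not called. The 5515 calls became 3550 with replicates 3 and 4 only and 3644 to 5429 with each replicate left out. Without the replicate block the count was 5652, intronic calls were 1985 and full-against-intronic calls 582 in place of 1847. Leaving out replicates gave 1330 to 2779 intronic and 729 to 1800 full-against-intronic calls. Same-numbered libraries of the 2 times deviated together weakly (r = 0.15, 0.12, 0.07 and 0.23, not all over 0.1); each correlated best with its own number, a hint from the data and not from the design. For KO minus WT the count of 3 was 1 without the block, 70 with DESeq2, 32 without the filter and 0 to 4 with a replicate left out. For TG minus WT the count of 5 was 1, 93, 64 and 0 to 8 in that order. The cause was not tested. Both interactions rest on few replicates and their calls depend on these choices.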

Other observations

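Genes that p53 and cell death control shifted with time as well. In the list of p53 targets 10 of 21 rose and 3 fell (median log2 0.39; 1 fell without replicate 4). Perp, a death-associated membrane protein gene, went from 6.22, 7.74, 5.92 and 5.62 CPM at 24 h to 74.3, 48.2, 24.1 and 22.6 CPM at 48 h (log2 2.57 ± 0.24), with replicates 1 and 2 above the others at 48 h. Plk2, a stress-responsive kinase gene, went from 13.0 to 27.8 CPM to 57.8 to 87.4 CPM (log2 1.80 ± 0.15). The death receptor gene Fas went from 13.1 to 26.0 CPM to 42.9 to 75.0 CPM (log2 1.47 ± 0.23). In the BCL2 family 7 of 17 rose and 1 fell, and the survival gene Bcl2 went from 51.5 to 84.3 CPM to 104 to 181 CPM (log2 1.04 ± 0.17).

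Of 37 proteasome genes 4 rose and 10 fell (median -0.07), and without replicate 4 the number that fell was 4. The interferon-inducible immunosubunit genes Psmb9 and Psmb8 rose, from 96.6 to 132 CPM to 193 to 246 CPM (log2 0.94 ± 0.13) and from 299 to 359 CPM to 498 to 633 CPM (log2 0.75 ± 0.10). Psme3, which encodes the nuclear activator PA28 gamma, fell from 610.1 to 710.0 CPM to 316 to 456 CPM (log2 -0.87 ± 0.11). In the list of unfolded protein response and endoplasmic reticulum folding genes 7 of 19 fell and 2 rose, with calreticulin, Calr, going from 1156 to 1379 CPM to 733 to 885 CPM (log2 -0.67 ± 0.09). The risers were Herpud1 (log2 0.88 ± 0.08), a factor in disposal of misfolded proteins, and Xbp1 (log2 0.85 ± 0.11), a transcription factor gene of the unfolded protein response.

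Trafficking genes rose in 16 of 25 cases and fell in 3 (median 0.66; 1 fell without replicate 4). The integrin gene Itgb3 went from 9.44 to 15.4 CPM to 58.9 to 119.7 CPM (log2 2.65 ± 0.15), under the 212 to 246 CPM of naive cells, and the chemokine receptor gene Ccr6 from 1.08 to 4.11 CPM to 5.95 to 19.7 CPM (log2 2.01 ± 0.21). In proximal T cell receptor signalling 8 of 24 rose and 5 fell; Themis, a signalling adaptor gene, went from 21.8 to 41.6 CPM to 52.3 to 122 CPM (log2 1.70 ± 0.13). The kinase gene Pim2 fell from 303 to 380.3 CPM to 154 to 204 CPM (log2 -0.98 ± 0.09) in a list of cytokine receptors and JAK-STAT genes where 20 of 29 rose.

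At 48 h the summed level of the 30 interferon-inducible genes ran in the order replicate 1, 2, 4, 3 in WT cells under the weak stimulus (5530, 3769, 3186 and 2146 CPM), in WT cells under the very weak stimulus (4832, 3787, 2874 and 1866 CPM) and in KO cells (12791, 8374, 3175 and 2621 CPM), and in another order in TG cells (1666, 1104, 1353 and 1500.1 CPM for the same numbers). The order was noticed in the data, and what the replicate numbers share is not stated in the labels.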
